A study of Mus musculus with 4 samples.

Results

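The genes described here encode the matrix metalloproteinases (MMPs), the ADAMTS proteases and the tissue inhibitors of metalloproteinases (TIMPs) of the mouse. The members were all protein-coding genes whose symbol is Mmp, Adamts or Timp followed by a digit, with Mmp9 and Adamts2 set aside, and 43 of the 47069 genes in the table met this rule: 21 MMP genes, 18 ADAMTS genes and 4 TIMP genes. Mmp1a was not counted because GENCODE M21 lists it as a polymorphic pseudogene. RNA was sequenced from primary bone marrow stromal cells (mBMSCs) of wild type C57BL/6J mice aged 8 weeks. The cells were grown to confluence and kept for 3 d in 50 μM ginkgolic acid (GA) with 1 μM dexamethasone (DEX) or in DMSO with 1 μM DEX, with 2 libraries per group. GA is an inhibitor of sumoylation and DEX a synthetic glucocorticoid, which both groups received, so the comparison is of GA with its solvent in the presence of DEX. The cells are those of whole marrow that stuck to the plate, and the labels give no sort.

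MMPs and ADAMTS proteases are zinc-dependent enzymes that cut the proteins of the extracellular matrix. Most MMPs are secreted as inactive proenzymes, while the membrane-type MMPs sit at the cell surface and are activated inside the cell by furin-like enzymes. ADAMTS proteases are secreted, and carry thrombospondin repeats that hold them to the matrix. TIMPs block the active site of MMPs, and Timp3 blocks several ADAMTS and ADAM proteases as well. Bone-forming cells are a known source of Mmp13, Mmp14 and Mmp2, and developing fat cells remodel the matrix around them.

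Values are FPKM, fragments scaled to gene length and library size, so levels can be compared between genes. The size of the smallest value step put the reads behind them at 21559951 to 24611800 in GA plus DEX and 25717834 to 31069538 in DMSO plus DEX, and in a 1 kb gene 1 FPKM stood for 21.6 to 31.1 reads. Genes averaging 1 FPKM or more were tested with limma on log2(FPKM + 1), and log2 fold changes below are on that scale, which understates the change of low genes. A gene was called at an adjusted p under 0.05, and folds compare the group means of FPKM. The median log2 fold change of all genes tested was 0.19, and -0.04 after the log values of each library were shifted to a common median. Where that shift ended or made a call of a member, this is stated. No label ties the 2 libraries of each group to different mice or cultures, so the p-values reflect the spread of these libraries alone, which may be technical. Markers of several cell types moved with the treatment. Among all 12174 genes tested, 46.3% were called higher and 11.9% lower. All 9 adipocyte markers tested were higher in GA plus DEX, as were 8 of 9 osteoclast markers, 12 of 13 macrophage markers (9 after the shift) and both endothelial markers, and all 10 osteoblast markers were lower. Of these higher markers 5, 3, 1 and 2, in the same order, were below 1 FPKM in both DMSO libraries and passed the minimum through the GA libraries. Among stromal markers Cxcl12, Kitl, Lepr, Vcam1 and Pdgfra were higher (Pdgfra not after the shift) and Col1a1, Col1a2, Pdgfrb, Twist1 and Eng lower, and Thy1 was at a mean of 0.547 FPKM in GA plus DEX and 0.868 FPKM in DMSO plus DEX.

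Of the 43 genes, 27 passed the minimum and were tested: 12 MMP, 11 ADAMTS and all 4 TIMP genes. In GA plus DEX 11 of the 27 were higher, 9 were lower and 7 were not called, beside 46.3% higher, 11.9% lower and 58.3% in either direction among all genes tested. The groups did not overlap in 22 of the 27, beside 80.9% of all genes. The median log2 fold change was -0.01 over the 27 genes and 0.19 over all genes tested. After the shift to a common median 7 were higher and 13 lower, against 19.5% and 27.9% of all genes. Both Timp4 and Adamts15 lay below 1 FPKM in DMSO plus DEX and passed the minimum through the GA libraries, and Mmp8 lay below 1 FPKM in GA plus DEX. The most abundant members were lower with GA, namely Mmp14, Timp2, Mmp2, Mmp23, Adamts1 and Timp1, and among the 7 members with a mean of at least 100 FPKM Mmp13 alone was higher. In these bulk libraries, fewer cells of a type and less RNA per cell cannot be told apart.

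**Figure D1:**
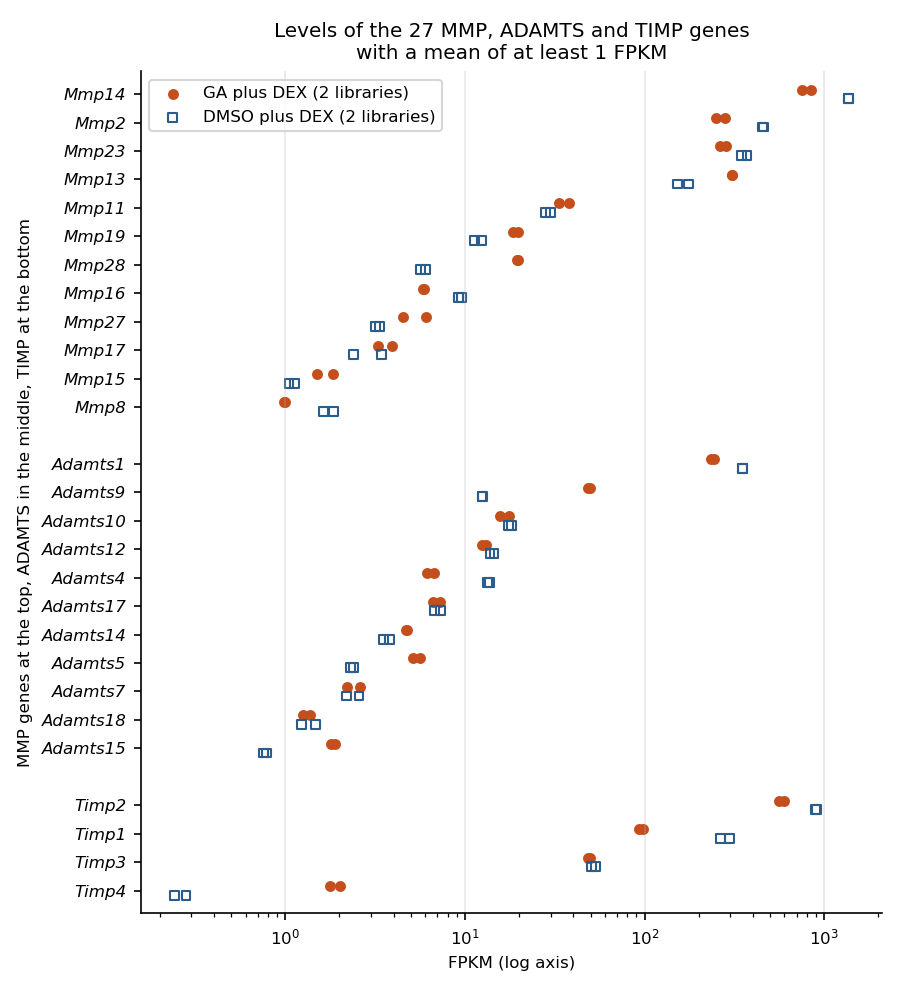
FPKM (log axis) of the 27 members with a mean of at least 1 FPKM, with MMP genes at the top, ADAMTS genes in the middle and TIMP genes at the bottom, each sorted by mean level. Filled circles are the 2 GA plus DEX libraries and open squares the 2 DMSO plus DEX libraries. Levels ran from Timp4, at 0.241 FPKM in the lower DMSO library, to Mmp14, at 1360 FPKM in the higher one.

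Mmp14, Mmp2 and Timp2 were the 3 most abundant members in DMSO plus DEX, and all were lower in GA plus DEX. Mmp14 is the membrane-type MMP known as MT1-MMP, which cuts fibrillar collagen at the cell surface. It also activates the gelatinase proMMP2, with TIMP2 as the bridge between the 2 proteins. Mmp14 (ENSMUSG00000000957) had 747 and 839 FPKM in the GA plus DEX libraries, against 1356 and 1360 FPKM in the DMSO plus DEX libraries. It was the 47th most abundant of the genes tested, and both GA libraries lay far below both DMSO libraries, which differed little from each other. Its mean was 793 ± 64.9 FPKM in GA plus DEX and 1358 ± 2.79 FPKM in DMSO plus DEX (SD, n = 2 each), 1.71-fold lower with GA (log2 fold change -0.78, SE 0.08, limma adjusted p = 1.40e-04). Mmp2 (ENSMUSG00000031740), gelatinase A, had 249 and 278 FPKM with GA, against 455 and 459 FPKM with DMSO, 1.73-fold lower (log2 fold change -0.79, SE 0.07, limma adjusted p = 6.97e-05). Timp2 (ENSMUSG00000017466) had 557 and 593 FPKM with GA, against 894 and 906 FPKM with DMSO, 1.57-fold lower (log2 fold change -0.65, SE 0.06, limma adjusted p = 1.46e-04). The 3 genes fell by similar factors, with a ratio of Mmp14 to Timp2 of 1.38 ± 0.0521 in GA plus DEX and 1.51 ± 0.0115 in DMSO plus DEX (SD, n = 2 each).

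The other membrane-type genes were far less abundant and did not share a direction. Mmp16 (MT3-MMP), like Mmp14 a protein with a transmembrane segment, fell 1.60-fold, with 5.91 and 5.85 FPKM in GA plus DEX and 9.55 and 9.23 FPKM in DMSO plus DEX (limma adjusted p = 2.59e-04). Mmp15 (MT2-MMP) had 1.49 and 1.85 FPKM with GA and 1.12 and 1.05 FPKM with DMSO, 1.55-fold higher (log2 fold change 0.36, limma adjusted p = 0.0365). This was the highest adjusted p among the 20 members called. It was lost after the shift (adjusted p = 0.434) and without any of GA replicate 2, DMSO replicate 1 or DMSO replicate 2 (adjusted p = 0.158, 0.0739 and 0.107). Mmp17 (MT4-MMP), which is held to the membrane by a lipid anchor, had 3.28 and 3.92 FPKM with GA and 2.39 and 3.43 FPKM with DMSO. The groups overlapped, and Mmp17 was not called (log2 fold change 0.24, limma adjusted p = 0.172), although without DMSO replicate 2 it was called higher (adjusted p = 0.0230). Mmp24 and Mmp25 stayed at or below 0.173 FPKM in every library. As a class, the 6 membrane-type genes summed to 804 ± 65.6 FPKM in GA plus DEX and 1372 ± 3.29 FPKM in DMSO plus DEX (SD, n = 2 each), nearly all of it from Mmp14. Mmp23, a membrane-anchored MMP of an unusual type that is set free by furin-like cleavage, was more abundant than any of these except Mmp14. It had 264 and 283 FPKM with GA, against 345 and 371 FPKM with DMSO, 1.31-fold lower (log2 fold change -0.39, limma adjusted p = 0.00192).

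Mmp13, the main interstitial collagenase of mouse bone and cartilage, went against the other abundant members. Mmp13 (ENSMUSG00000050578) had 304 and 308 FPKM in GA plus DEX, against 152 and 175 FPKM in DMSO plus DEX. The DMSO libraries differed from each other by more than the GA libraries did, but the groups were well apart, at 306 ± 2.30 FPKM with GA and 164 ± 16.1 FPKM with DMSO (SD, n = 2 each). This was a 1.87-fold rise (log2 fold change 0.90, SE 0.07, limma adjusted p = 5.17e-05), and Mmp13 stayed higher after the shift (log2 fold change 0.67). The level of Mmp13 was thus 1.16 ± 0.0830 times that of Mmp2 in GA plus DEX and 0.358 ± 0.0328 times that of Mmp2 in DMSO plus DEX (SD, n = 2 each). Both osteoblasts and hypertrophic chondrocytes are known to make Mmp13. In these libraries all 10 osteoblast markers tested were lower, and of 6 chondrocyte markers tested 2 were lower and 4 not called. The summed level of the chondrocyte list was 164 to 182 FPKM in GA plus DEX and 279 to 322 FPKM in DMSO plus DEX. Most of it came from the 2 lower genes, Col2a1 (means of 104 FPKM with GA and 199 FPKM with DMSO) and Col11a2 (54.3 and 90.0 FPKM). All other markers of the list had higher means with GA, such as Sox9 (4.98 and 4.01 FPKM), and none of these was called. Acan, Chad and Matn1 were below 1 FPKM on average. Some differed between the DMSO libraries, such as Cnmd at 0 and 3.81 FPKM. No part of these cells in the rise of Mmp13 was tested. Mmp8, the collagenase of neutrophils, had 0.983 and 0.994 FPKM with GA and 1.85 and 1.63 FPKM with DMSO, about 51.4 to 59.3 reads with GA and 102 to 139 reads with DMSO, so it fell 1.76-fold (limma adjusted p = 0.0102, and 0.0567 without DMSO replicate 1). The neutrophil markers summed to 5.06 to 6.22 FPKM in GA plus DEX and 2.10 to 3.64 FPKM in DMSO plus DEX, with Ly6g at 0 in all libraries. Of the 2 tested, S100a8 was called higher, but it was below 1 FPKM in both DMSO libraries and passed the minimum through the GA libraries. Mmp1b, which was grouped here with the collagenases, was listed at 0 in all 4 libraries.

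The start regions of Mmp13 and Mmp14 are shown because these 2 collagen-cutting enzymes moved in opposite directions. Each is the 250 bases before the RefSeq transcription start on build GRCm38.p6, 5′ to 3′ on the strand of the gene, and capitals mark motif matches on either strand. The motifs searched, on both strands, were the AP-1 motif TGANTCA, the RUNX motif TGTGGT, whose reverse complement is ACCACA, the TATA box TATAAA, the GC box GGGCGG and the DR1 repeat bound by PPAR and RXR.
Mmp13 (chr9:7272264-7272513, + strand): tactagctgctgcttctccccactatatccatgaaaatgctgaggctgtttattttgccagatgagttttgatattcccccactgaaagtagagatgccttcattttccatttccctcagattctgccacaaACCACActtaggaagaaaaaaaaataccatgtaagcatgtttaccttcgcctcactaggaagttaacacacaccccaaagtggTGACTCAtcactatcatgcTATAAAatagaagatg
Mmp14 (chr14:54431348-54431597, + strand): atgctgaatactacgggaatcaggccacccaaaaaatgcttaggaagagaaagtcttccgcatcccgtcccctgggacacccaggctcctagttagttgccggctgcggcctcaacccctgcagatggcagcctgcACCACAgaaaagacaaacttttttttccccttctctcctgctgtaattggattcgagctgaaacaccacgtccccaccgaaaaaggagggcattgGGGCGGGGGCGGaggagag
The Mmp13 region held a TGACTCA match whose first base lies 35 bases before the start, an ACCACA match at 118 and a TATAAA match at 16. The Mmp14 region held an ACCACA match at 114 and 2 GC boxes at 19 and 13 bases before the start. Of all 32851 such regions, 6.75% held the AP-1 motif, 14.0% the RUNX motif, 12.4% the TATA box, 32.7% the GC box and 0.0335% the PPAR repeat. Start regions were at hand for 30 of the 43 members, 18 of them tested. Among those 18, the AP-1 motif occurred only in Mmp13, the TATA box in Mmp13 and Adamts1, and the PPAR repeat in none. The RUNX motif occurred in 4 of the 18, namely 2 of the 8 called higher and 2 of the 6 called lower. The GC box occurred in 11, among them 5 of the 8 called higher and 4 of the 6 called lower. The perfect PPAR repeat is so rare that its absence says nothing about these members, and weaker sites were not searched. The AP-1 motif also stood before 6 of the 12 members that were not tested, Mmp1b, Mmp3, Mmp7, Mmp10, Mmp12 and Mmp20, all of which lie in 1 gene cluster with Mmp13. A match is a description of these letters, and binding was not measured.

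Of the 9 members that lie side by side in the MMP cluster of chromosome 9, Mmp13 was the only abundant one. Mmp27 and Mmp8 passed the minimum, and the other 6 stayed at or below 0.126 FPKM. These 6 include the stromelysins Mmp3 and Mmp10, which activate other proMMPs, matrilysin (Mmp7) and the macrophage elastase Mmp12. Mmp12 had 0.120 and 0.126 FPKM in GA plus DEX and 0.0499 and 0.121 FPKM in DMSO plus DEX. In the same libraries the 14 macrophage markers measured summed to 4163 to 4860 FPKM with GA and 3292 to 3557 FPKM with DMSO. Mmp27, the neighbour of Mmp8, had 6.03 and 4.51 FPKM with GA and 3.19 and 3.34 FPKM with DMSO, 1.61-fold higher (limma adjusted p = 0.00648, and 0.0638 after the shift).

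Further secreted MMP genes of middle abundance were higher in GA plus DEX. Mmp28 (epilysin, ENSMUSG00000020682), which like Mmp11 is activated by furin-like enzymes, had 19.7 and 19.6 FPKM with GA, against 6.00 and 5.66 FPKM with DMSO. With both GA libraries above both DMSO libraries and hardly any spread within the groups, this was a 3.37-fold rise and the largest log2 fold change among the MMP genes tested (1.60, SE 0.06, limma adjusted p = 1.17e-06). Mmp28 shares 466 exon bases with 1700020L24Rik on the opposite strand, a gene with a mean of 8.58 FPKM in GA plus DEX and 2.86 FPKM in DMSO plus DEX. No strand setting was stated, so how reads from the shared bases were assigned is not known. Mmp19, a secreted protease made by many cell types, including macrophages, had 19.6 and 18.4 FPKM with GA and 12.3 and 11.3 FPKM with DMSO, 1.61-fold higher (log2 fold change 0.64, limma adjusted p = 1.85e-04). Mmp19 shares 789 exon bases with Tmem198b on the opposite strand, which averaged 5.03 FPKM with GA and 5.09 FPKM with DMSO. Macrophage markers were higher in these libraries too, with the sums given above, and their part in the rise of Mmp19 was not tested. Mmp11 (stromelysin 3), which cuts few structural matrix proteins and is known from mouse work as a restraint on fat cell formation, had 33.2 and 38.1 FPKM with GA and 28.2 and 29.8 FPKM with DMSO. This 1.23-fold rise (log2 fold change 0.29, limma adjusted p = 0.0141) was lost after the shift (0.05, adjusted p = 0.582) and without GA replicate 2 or DMSO replicate 1 (adjusted p = 0.0542 and 0.0644). Mmp11 shares 155 exon bases with Chchd10 on the opposite strand, which had a mean of 36.2 FPKM in GA plus DEX and 2.62 FPKM in DMSO plus DEX.

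**Figure D2:**
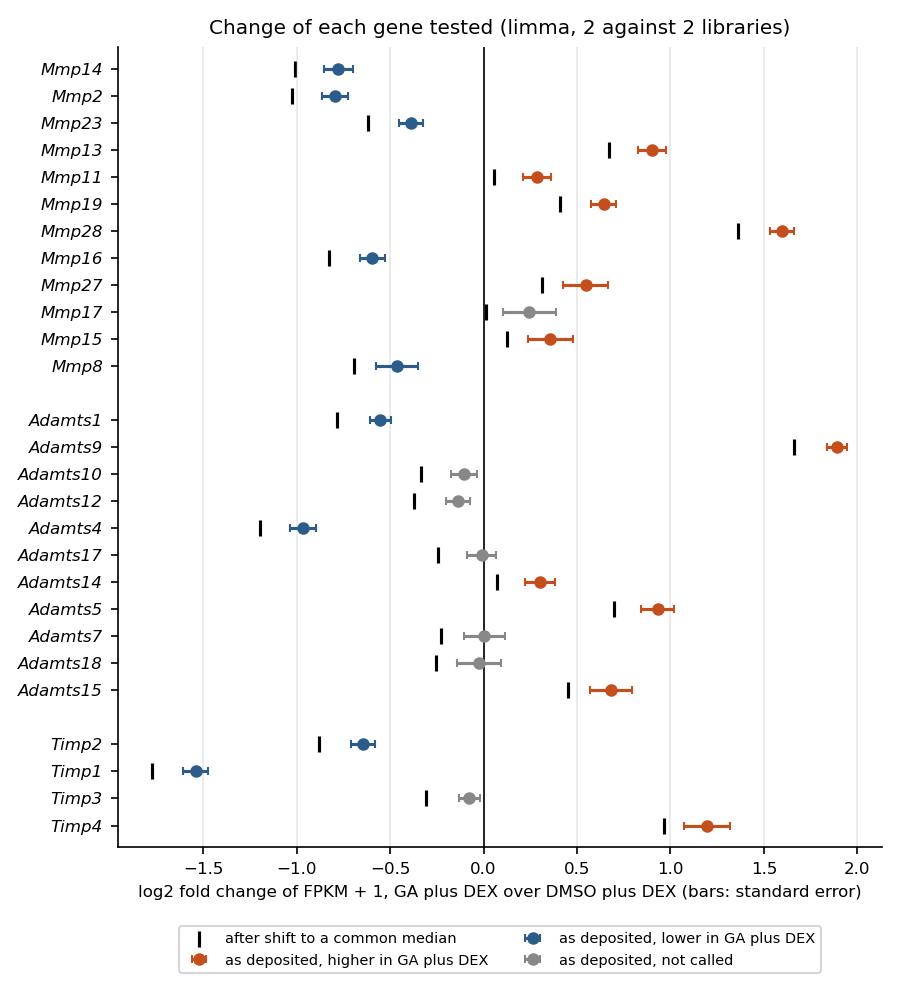
Log2 fold change of FPKM + 1, GA plus DEX over DMSO plus DEX, for the 27 members tested, with bars for the limma standard error. Colours mark genes called higher (11), called lower (9) and not called (7), and black ticks give the value after each library was shifted to a common median, which lies lower by an equal step for each gene.

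Of the 7 ADAMTS proteases known to cut proteoglycans, 5 were tested and all 5 were called, 3 higher and 2 lower, beside 58.3% of all genes called in either direction. Adamts15 is among the 3, and passed the minimum through the GA libraries. Adamts1 (ENSMUSG00000022893), which cuts versican and aggrecan, was the most abundant ADAMTS member, with 234 and 243 FPKM in GA plus DEX, against 350.1 and 349.7 FPKM in DMSO plus DEX, 1.47-fold lower (log2 fold change -0.55, SE 0.06, limma adjusted p = 1.46e-04). Adamts9 (ENSMUSG00000030022), a widely expressed protease of versican and aggrecan, had 48.2 and 49.5 FPKM with GA, against 12.5 and 12.4 FPKM with DMSO. The replicates nearly coincided, and the 3.93-fold rise had the largest log2 fold change of all 27 members (1.89, SE 0.05, limma adjusted p = 2.38e-07). Adamts9 shares 1381 exon bases with A730049H05Rik on the opposite strand, which averaged 0.148 FPKM with GA and 0.0270 FPKM with DMSO. Adamts9 provided 14.1 ± 0.120% of the summed ADAMTS level in GA plus DEX and 2.92 ± 0.00367% in DMSO plus DEX (SD, n = 2 each). Adamts1 provided 68.8 ± 0.182% with GA and 82.0 ± 0.0793% with DMSO.
The classical aggrecanases Adamts4 and Adamts5 went opposite ways. Adamts4 had 6.16 and 6.74 FPKM with GA and 13.7 and 13.3 FPKM with DMSO, 2.10-fold lower (log2 fold change -0.96, limma adjusted p = 2.70e-05). Adamts5 had 5.63 and 5.15 FPKM with GA and 2.29 and 2.40 FPKM with DMSO, 2.30-fold higher (log2 fold change 0.93, limma adjusted p = 1.01e-04). The level of Adamts5 was 0.839 ± 0.106 times that of Adamts4 in GA plus DEX and 0.174 ± 0.00916 times in DMSO plus DEX (SD, n = 2 each). Adamts5 and Adamts1 lie next to each other on chromosome 16 with no named protein-coding gene between them, and they also moved in opposite directions. Adamts15, a versican-cutting protease, had 1.89 and 1.80 FPKM with GA and 0.787 and 0.754 FPKM with DMSO, 2.39-fold higher (limma adjusted p = 0.00166). Its neighbour Adamts8 stayed at or below 0.0225 FPKM. Versican itself, Vcan, had 86.6 and 82.9 FPKM in GA plus DEX and 20.6 and 20.5 FPKM in DMSO plus DEX.

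Of the other 6 ADAMTS genes tested, Adamts14 alone was called. Adamts14, a procollagen N-propeptidase, had 4.66 and 4.76 FPKM with GA and 3.50 and 3.78 FPKM with DMSO, 1.30-fold higher (log2 fold change 0.30, limma adjusted p = 0.0152). This call was lost after the shift (0.07, adjusted p = 0.505) and without GA replicate 2 or DMSO replicate 1 (adjusted p = 0.0539 and 0.0807). Adamts12, which with Adamts7 cuts cartilage oligomeric matrix protein, had 12.4 and 13.1 FPKM with GA and 14.5 and 13.8 FPKM with DMSO. Adamts10, a protein associated with fibrillin microfibrils, had 15.6 and 17.5 FPKM with GA and 17.5 and 18.1 FPKM with DMSO. Neither was called as deposited (log2 fold change -0.14, adjusted p = 0.0971, and -0.10, limma adjusted p = 0.238), and both were called lower after the shift (adjusted p = 0.00282 and 0.00563). Adamts17, a relative of Adamts10, behaved alike, with 6.66 and 7.27 FPKM with GA and 7.30 and 6.73 FPKM with DMSO (limma adjusted p = 0.919, and 0.0422 after the shift, as a fall). Adamts7 and Adamts18 were not called with or without the shift, at 2.19 to 2.59 FPKM in GA plus DEX and 2.19 to 2.57 FPKM in DMSO plus DEX for Adamts7, and 1.25 to 1.38 FPKM in GA plus DEX and 1.23 to 1.47 FPKM in DMSO plus DEX for Adamts18. Adamts7 shares 122 exon bases with Tbc1d2b on the opposite strand, which averaged 68.3 FPKM with GA and 94.2 FPKM with DMSO. A p that misses the threshold does not show that these levels were equal.

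Of the 4 TIMP genes, Timp1 and Timp2 were lower with GA, Timp4 was higher and Timp3 was not called. Timp1 (ENSMUSG00000001131), a secreted inhibitor that blocks most soluble MMPs but acts poorly on the membrane-type ones, had 97.5 and 93.3 FPKM in GA plus DEX, against 265 and 295 FPKM in DMSO plus DEX. The groups were far apart, and its log2 fold change of -1.54 (SE 0.07, limma adjusted p = 2.02e-06) was the lowest of all 27 members. Timp3 (ENSMUSG00000020044), the inhibitor that binds to the matrix, had 48.4 and 49.9 FPKM with GA and 50.6 and 53.2 FPKM with DMSO. It was not called as deposited (log2 fold change -0.08, limma adjusted p = 0.266) and was called lower after the shift (-0.31, adjusted p = 0.00224). Timp4 (ENSMUSG00000030317), an inhibitor with a narrow expression that includes heart and fat tissue, had 1.77 and 2.01 FPKM with GA, against 0.280 and 0.241 FPKM with DMSO. This was a 7.25-fold difference in FPKM, from about 225 to 291 reads with GA and 36.6 to 51.2 reads with DMSO, and a log2 fold change of 1.20 (SE 0.12, limma adjusted p = 1.73e-04). Timp4 shares 90 exon bases with Syn2 on the opposite strand, in which it is nested, and Syn2 had a mean of 1.56 FPKM in GA plus DEX and 0.174 FPKM in DMSO plus DEX. Timp3 shares 1733 exon bases with Syn3, which stayed near 0.0680 FPKM with GA and 0.0678 FPKM with DMSO. Adipocyte markers rose in the same libraries, with a summed level of 4546 to 5242 FPKM in GA plus DEX and 38.5 to 40.4 FPKM in DMSO plus DEX, and their part in the rise of Timp4 was not tested.
Timp2 made up 79.7 ± 0.898% of the summed TIMP level with GA and 73.1 ± 1.19% with DMSO. Timp1 made up 13.2 ± 0.840% with GA and 22.7 ± 1.16% with DMSO, and Timp3 6.81 ± 0.0727% with GA and 4.21 ± 0.0392% with DMSO (SD, n = 2 each). Timp4 stayed below 1% in all libraries.
The start regions of Timp1 and Timp4 are shown because they belong to the TIMP genes with the lowest and the highest log2 fold change. Capitals mark matches of the same motifs.
Timp1 (chrX:20869916-20870165, + strand): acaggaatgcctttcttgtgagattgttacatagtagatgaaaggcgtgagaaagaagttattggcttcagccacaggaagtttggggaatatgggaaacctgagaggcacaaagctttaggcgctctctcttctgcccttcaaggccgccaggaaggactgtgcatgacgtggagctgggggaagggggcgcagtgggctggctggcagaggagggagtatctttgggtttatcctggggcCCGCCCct
Timp4 (chr6:115252206-115252455, - strand): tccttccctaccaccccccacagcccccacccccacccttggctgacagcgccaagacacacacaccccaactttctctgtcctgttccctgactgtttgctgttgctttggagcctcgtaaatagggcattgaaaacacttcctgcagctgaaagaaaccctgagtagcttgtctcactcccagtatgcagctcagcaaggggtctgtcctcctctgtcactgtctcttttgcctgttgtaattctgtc
Timp1 held a GC box (CCGCCC) whose first base lies 8 bases before the start, and Timp4 held no match to any of the motifs searched. G and C made up 54.4% of the bases of the Timp1 region and 53.6% of those of the Timp4 region.

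The balance of proteases and inhibitors was followed by adding the FPKM of all members of a family in each library. The summed MMP level was 1655 and 1801 FPKM in GA plus DEX, against 2373 and 2431 FPKM in DMSO plus DEX, 1.39-fold lower. The summed ADAMTS level was 339.9 and 354 FPKM with GA, against 427 and 426 FPKM with DMSO, 1.23-fold lower. The summed TIMP level was 705 and 738 FPKM with GA, against 1209 and 1254 FPKM with DMSO, 1.71-fold lower. All 3 sums were thus lower with GA, and that of the inhibitors by the largest factor. The ratio of all proteases to TIMPs was 2.83 and 2.92 in GA plus DEX, against 2.32 and 2.28 in DMSO plus DEX, a factor of 1.25. The ratio of MMPs to TIMPs was 2.39 ± 0.0646 with GA and 1.95 ± 0.0176 with DMSO, and that of ADAMTS to TIMPs 0.481 ± 0.00242 with GA and 0.346 ± 0.00958 with DMSO (SD, n = 2 each). Timp3, which blocks several ADAMTS proteases, held only 6.81% of the TIMP sum with GA and 4.21% with DMSO. Its mean was 1.06-fold lower with GA (not called), against 1.23-fold for the ADAMTS sum. Relative to Timp3 alone, the ADAMTS sum was thus lower with GA. A single scaling factor per library would leave these ratios as they are, since both sums come from the same column, but they weigh every transcript alike and say nothing of enzyme activity. They are given as a description, with no test. The exact permutation test for a single value cannot reach a p of 0.05 with 2 against 2 libraries.

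**Figure D3:**
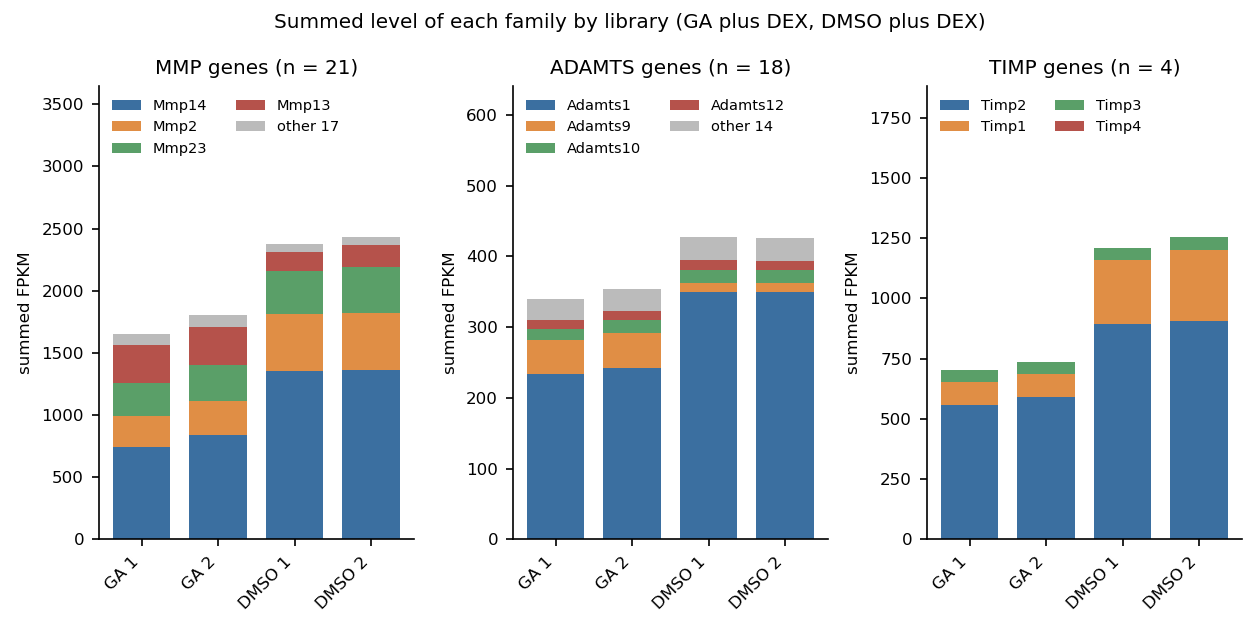
Summed FPKM of the 21 MMP, 18 ADAMTS and 4 TIMP genes in each library, with the 2 GA plus DEX libraries on the left of each panel and the 2 DMSO plus DEX libraries on the right. Colours give the 4 most abundant genes of each family and grey the others. The bars show a higher Mmp13 level and lower Mmp14, Mmp2, Timp1 and Timp2 levels in FPKM with GA.

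A few genes carried these sums. Mmp14, Mmp2, Mmp23 and Mmp13 held 94.7% of the MMP sum in GA plus DEX and 97.3% in DMSO plus DEX. The share of Mmp14 was 45.9 ± 1.01% with GA and 56.5 ± 0.846% with DMSO, that of Mmp2 15.2 ± 0.290% with GA and 19.0 ± 0.199% with DMSO, and that of Mmp13 17.7 ± 0.928% with GA and 6.81 ± 0.554% with DMSO (SD, n = 2 each). The factor of 1.25 between the groups in the ratio of proteases to TIMPs depended on single genes. It was 1.13 without Mmp13 and 1.12 without Timp1. Without both of them it was 1.01, and the ratios overlapped, at 2.78 and 2.86 in GA plus DEX and 2.80 and 2.80 in DMSO plus DEX. It was 1.49 without Mmp14 and 1.66 without Timp2. The 2 protease genes set aside by the rule would add to these sums. Mmp9, gelatinase B, which is strongly expressed by osteoclasts, had 416 and 412 FPKM in GA plus DEX, against 43.1 and 39.4 FPKM in DMSO plus DEX. Adamts2, a procollagen N-propeptidase, had 103 and 114 FPKM with GA, against 149.6 and 152 FPKM with DMSO. With both added the ratio was 3.60 ± 0.0450 with GA and 2.45 ± 0.0322 with DMSO (SD, n = 2 each), a factor of 1.47, and the MMP sum was 1.14-fold lower with GA. The osteoclast markers summed to 489.8 to 547 FPKM with GA and 269 to 279.8 FPKM with DMSO in these libraries, and none of their 10 genes was at 0. Their part in the balance was not tested.

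**Figure D4:**
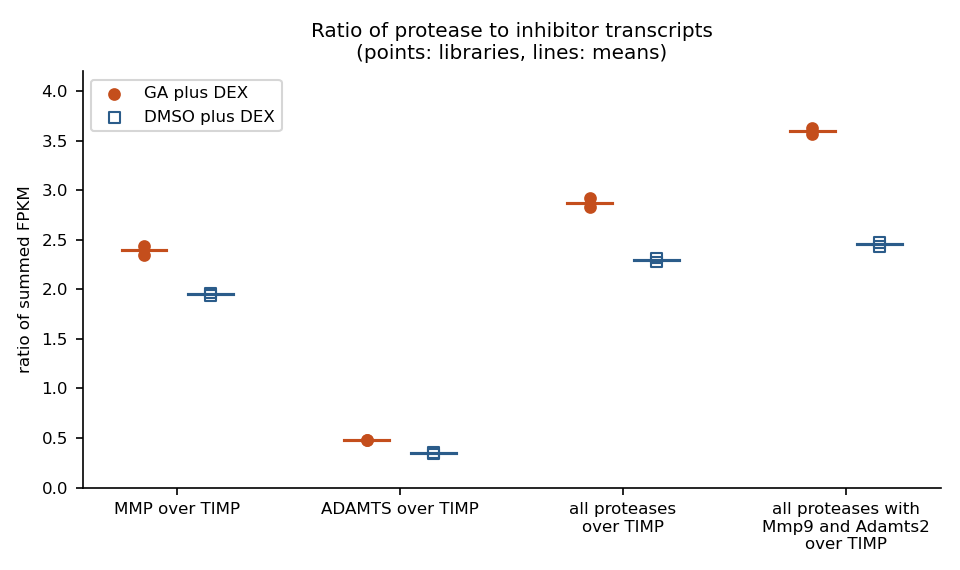
Ratio of summed protease FPKM to summed TIMP FPKM in each library (points) with the group mean (lines), for MMPs, ADAMTS proteases, both together, and both with Mmp9 and Adamts2 added. GA plus DEX (circles) lies above DMSO plus DEX (squares) in each ratio, with 2.83 and 2.92 in GA plus DEX and 2.32 and 2.28 in DMSO plus DEX for all proteases. The ADAMTS ratio divides by the sum of all TIMP genes, not by Timp3 alone.

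The 16 members that were not tested ran from 0 to 0.677 FPKM, and none reached 1 FPKM in any library. Mmp1b and Adamts19 were listed at 0 in all 4 libraries. Adamts3, which processes procollagen and the lymphatic growth factor VEGF-C, was the highest of them, with 0.560 and 0.475 FPKM in GA plus DEX and 0.677 and 0.515 FPKM in DMSO plus DEX. Adamts6 followed with 0.346 and 0.489 FPKM with GA and 0.487 and 0.532 FPKM with DMSO. The other 12 of these genes were at or below 0.173 FPKM, among them Adamts13, the protease of von Willebrand factor, Adamts20 and the enamel protease Mmp20.

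Other genes of matrix proteolysis were read from 4 lists, set by family or role, and a gene listed need not encode an active protease. Their counts stand beside 46.3% higher and 11.9% lower among all genes tested, or 19.5% higher and 27.9% lower after the shift. Of 12 genes tested that activate MMPs or work beside them, 4 were higher and 5 lower with GA (1 and 7 after the shift). The proprotein convertase gene Pcsk5 rose 2.84-fold, with 11.5 and 11.7 FPKM with GA and 4.07 and 4.13 FPKM with DMSO, and the urokinase receptor gene Plaur fell 1.55-fold. Furin, the convertase that activates membrane-type MMPs, had 64.8 and 73.7 FPKM with GA and 81.0 and 80.0 FPKM with DMSO (1.16-fold lower, limma adjusted p = 0.0300). The most abundant of the list not called was Cd44, a docking receptor for several MMPs, at 23.9 and 24.0 FPKM with GA and 24.3 and 25.6 FPKM with DMSO. Plasminogen (Plg) was at 0 in all libraries.
Of 9 genes tested for other inhibitors and clearance receptors, 4 were higher and none lower (2 and 4 after the shift). The serpin gene Serpina3n rose 11.3-fold, with 6.65 and 6.20 FPKM with GA and 0.608 and 0.527 FPKM with DMSO, though it was below 1 FPKM in both DMSO libraries and passed the minimum through the GA libraries. Lrp1, the receptor that takes up MMP13 and TIMP complexes, rose 1.21-fold, a call that was lost after the shift. Reck, a membrane-bound inhibitor of MMPs, had 15.7 and 17.9 FPKM with GA and 17.5 and 18.5 FPKM with DMSO and was not called (limma adjusted p = 0.313, and called lower after the shift). The cysteine protease inhibitor gene Cst3 was the most abundant not called, at 3102 and 2905 FPKM with GA and 2914 and 3058 FPKM with DMSO.
Of 11 ADAM genes tested, the membrane-bound relatives of the ADAMTS family, 7 were higher and none lower (3 and 2 after the shift). Adam17, the sheddase of tumor necrosis factor, had 47.9 and 45.8 FPKM with GA and 31.4 and 31.6 FPKM with DMSO, 1.49-fold higher (limma adjusted p = 1.26e-04), and Adam22 had the largest change of these genes, 2.56-fold, which was not called after the shift. Adam22 was below 1 FPKM in both DMSO libraries and passed the minimum through the GA libraries. Adam10 was the most abundant not called, at 54.9 and 57.5 FPKM with GA and 54.9 and 56.1 FPKM with DMSO. Among substrate genes, 6 were tested, of which 3 were called higher with GA and 2 lower, also after the shift. Vcan rose 4.13-fold and the brevican gene Bcan fell 2.35-fold, while Comp was not called, at 129 and 148 FPKM with GA and 128 and 126 FPKM with DMSO. The median log2 fold change of the 4 lists, in the order given, was -0.16, 0.04, 0.37 and 0.29, beside 0.19 for all genes tested.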

How the data were processed

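RNA of mBMSCs treated for 3 d was sequenced in 2 GA plus DEX and 2 DMSO plus DEX libraries. The authors deposited 1 table of FPKM values with a column per library, each carrying a sample's title. Tools listed in the submitters' processing notes were HTSeq 0.6.1, TopHat2 2.0.12 and Bowtie2 2.2.3, with build mm9. The annotation, gene lengths and strand use were not given in the sources used here. FPKM is a share of the library, so a few very abundant genes lower all others. Exon overlaps with genes on the opposite strand are not reported here for every member. Symbols were found for 46488 of 47069 identifiers. Coordinates are those of the RefSeq start regions on GRCm38.p6, which is not the build of the table.

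Depth was the most frequent value of the inverse of FPKM times exon length (GENCODE M21), shared by 1279 to 1368 genes with 1 read, and reads of a gene are estimates from that length. Only 23.3% to 24.6% of the genes above 0 in a library gave a whole number of reads within 0.001. For most genes these lengths thus differ from those behind the FPKM, and their read numbers are approximate. The 12174 genes with a mean of at least 1 FPKM were tested with limma 3.58.1 in R 4.3.3 (log2(FPKM + 1), intensity trend, two-sided, Benjamini-Hochberg over these genes, prior 5.38 and residual 2 degrees of freedom). limma was checked on simulated data with a small share of changed genes and about as many rises as falls. That check does not cover the excess of rises in these data. The members and lists were chosen with earlier results of these data known. Every member past the minimum was named, and those below it that are named were chosen after their values were seen. Of each other list, the largest change in each direction and the most abundant gene not called were named, together with the convertase, inhibitor, sheddase, receptor and substrate genes Furin, Reck, Adam17, Lrp1 and Plg, chosen after their values were seen. Alternatives were the pseudocount, the minimum, the scaling, the trend, each library left out and a replicate block. Voom on estimated reads and the balance with Mmp9 and Adamts2 or without Mmp13 and Timp1 were added after the data were seen. matplotlib 3.10.9 drew the figures.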

Additional observations from a re-analysis of the deposited data

How the results depend on the processing

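Of the 20 members called, 15 kept their direction and stayed past the threshold under every alternative that could be fitted (7 higher and 8 lower). The exceptions were Mmp8, Mmp11, Mmp15, Mmp27 and Adamts14. No called member changed sign. Fewer members were called higher than the 11 reported with no minimum FPKM (7), with a minimum of 5 FPKM (5, of 17 members tested), after the shift to a common median (7) and after quantile normalization (7), and 8 to 11 when 1 library was left out. The lower calls, 9 as reported, were 13 after the shift and after quantile normalization, 12 with voom on estimated reads (8 higher), and 8 to 9 when 1 library was left out. Apart from the minimum of 5, which tests fewer genes, the cause was not tested. Over all genes, 2380 were higher and 3392 lower after the shift, 2394 and 3273 after quantile normalization, and 2893 and 2952 with voom on estimated reads, against 5639 and 1454 as deposited (79.5% rises). In the 4 other lists 9 genes were higher and 15 lower after the shift, 14 were lower after quantile normalization and 15 with voom, against 18 and 7. The factor of 1.25 in the balance of proteases to TIMPs was 1.13 without Mmp13, 1.12 without Timp1, 1.01 without both, 1.49 without Mmp14, 1.66 without Timp2, 1.21 after quantile normalization, 1.47 with Mmp9 and Adamts2, and 1.23 to 1.27 when 1 library was left out.

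Libraries of the 2 groups share replicate numbers, but no label says that a number marks a shared culture, and deviations of same-numbered libraries did not go together (r = -0.03 across genes, which are not independent). With the replicate number as a block 5528 genes were higher and 1433 lower, and 10 and 9 members, with Mmp15 no longer called (adjusted p = 0.0552). Depth limits the low members most, since Mmp8 rested on about 51.4 to 139 reads per library and Timp4 on 36.6 to 291.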
